A study of Rattus norvegicus with 8 samples.

Results

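Gfap, Vim, Nes, Aqp4 and S100b, genes used to mark astrocytes and the interstitial glia of the pineal gland, were followed in rat pineal glands from just before birth to young adulthood. They were chosen by name from a list of 7 genes. Of these, 5 genes are described, with 6 transcripts out of the 16932 transcripts (16462 gene symbols) measured, because Aqp4 is represented by 2 transcripts. The other genes of the list, Glul and Sox9, are not analysed here. Poly(A)-enriched RNA was sequenced from pineal glands of Sprague-Dawley rats kept under 14 h of light and 10 h of dark, with no genotype or treatment given, before birth on embryonic day 21 (E21) and after it on postnatal days 5 (P5), 20 (P20) and 40 (P40). For each age there was a mid-night library (zeitgeber time 19) and a mid-day library (zeitgeber time 7), 8 libraries in all. Every library was a pool of glands, with 15 animals for E21 mid-night and 13 for E21 mid-day, 19 and 17 for the mid-night and mid-day pools of P5, 10 and 13 for those of P20, and 3 animals for each pool of P40.

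The rat pineal gland consists mainly of pinealocytes, the cells that make melatonin, set among interstitial cells that resemble astrocytes. Gfap, Vim and Nes encode proteins of the intermediate filament cytoskeleton: nestin is typical of neural progenitors, vimentin of immature glia and of many mesenchymal and endothelial cells, and glial fibrillary acidic protein of differentiated astrocytes. Aqp4 encodes the main water channel of astrocyte endfeet, and S100b a calcium-binding protein of astrocytes and other glia. During brain development astrocytes pass from a filament system of nestin and vimentin to one that includes glial fibrillary acidic protein.

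Promoter sequences are given for the filament genes and Aqp4, since their transcripts moved in opposite directions with age and those of Aqp4 differ in where they begin. They are RefSeq windows on build GRCr8, from 250 bases before to 50 bases after an annotated start, 5′ to 3′ on the gene's strand. Capitals mark matches, on either strand, to the TATA box (letters TATAAA), the CCAAT box (these letters themselves) or the GC box (letters GGGCGG). All 5 genes matched a window by symbol.
Gfap, chr10:88361612-88361911, minus strand: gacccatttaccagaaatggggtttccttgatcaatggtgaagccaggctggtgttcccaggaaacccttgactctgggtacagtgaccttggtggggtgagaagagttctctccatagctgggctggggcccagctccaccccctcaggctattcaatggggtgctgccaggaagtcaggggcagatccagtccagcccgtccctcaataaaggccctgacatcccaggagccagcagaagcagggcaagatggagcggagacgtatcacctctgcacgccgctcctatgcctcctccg
Vim, chr17:81577011-81577310, plus strand: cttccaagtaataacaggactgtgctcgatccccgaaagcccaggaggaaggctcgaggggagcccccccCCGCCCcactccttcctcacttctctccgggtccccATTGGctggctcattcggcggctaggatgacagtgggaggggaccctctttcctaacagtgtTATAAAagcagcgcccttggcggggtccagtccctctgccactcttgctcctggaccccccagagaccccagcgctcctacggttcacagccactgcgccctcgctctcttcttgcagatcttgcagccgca
Nes, chr2:175736338-175736637, plus strand: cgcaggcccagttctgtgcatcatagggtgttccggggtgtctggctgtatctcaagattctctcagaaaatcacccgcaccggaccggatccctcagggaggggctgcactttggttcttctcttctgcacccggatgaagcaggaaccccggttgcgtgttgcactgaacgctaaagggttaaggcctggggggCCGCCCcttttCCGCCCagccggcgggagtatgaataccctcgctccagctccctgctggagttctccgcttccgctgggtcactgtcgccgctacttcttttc
Aqp4, upstream start, chr18:6798793-6799092, minus strand: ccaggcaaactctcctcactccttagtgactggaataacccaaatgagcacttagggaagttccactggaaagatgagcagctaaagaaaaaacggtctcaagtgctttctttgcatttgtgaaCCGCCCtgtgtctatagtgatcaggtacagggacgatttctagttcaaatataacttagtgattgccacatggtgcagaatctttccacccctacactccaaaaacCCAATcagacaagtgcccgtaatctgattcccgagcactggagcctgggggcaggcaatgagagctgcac
Aqp4, downstream start, chr18:6797877-6798176, minus strand: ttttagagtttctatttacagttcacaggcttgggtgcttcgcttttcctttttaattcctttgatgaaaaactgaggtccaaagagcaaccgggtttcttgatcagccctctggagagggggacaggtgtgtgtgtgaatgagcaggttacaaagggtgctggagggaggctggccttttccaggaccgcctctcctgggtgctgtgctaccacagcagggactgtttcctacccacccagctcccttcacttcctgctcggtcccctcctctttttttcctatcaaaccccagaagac

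The Vim window held a TATA box beginning 82 bases before the start, a CCAAT box at 144 bases and a GC box at 180 bases before it. The Nes window held only GC boxes, beginning 54 and 43 bases before the start. The upstream Aqp4 window had a CCAAT box 20 bases and a GC box 126 bases before the start, while neither the Gfap window nor the downstream Aqp4 window matched any of these letters. S100b had 3 CCAAT boxes, at 246, 135 and 38 bases before its start. Among all 33469 windows of this length, TATAAA was found in 14.2%, CCAAT in 37.5% and GGGCGG in 33.1%. Letters used for AP-1 (TGANTCA, in 7.33% of windows), STAT (TTCNNNGAA, 8.87%) and NFI (0.0418%) were found in none of the windows of these 5 genes. The windows with GC boxes in Vim and Nes were 62% and 60% G and C, that of Gfap 58.7%, and those of Aqp4 47.3% (upstream) and 51.3% (downstream), against a median of 51.7% over all windows. A match is a description of the letters and not evidence of binding.

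**Figure D1:**
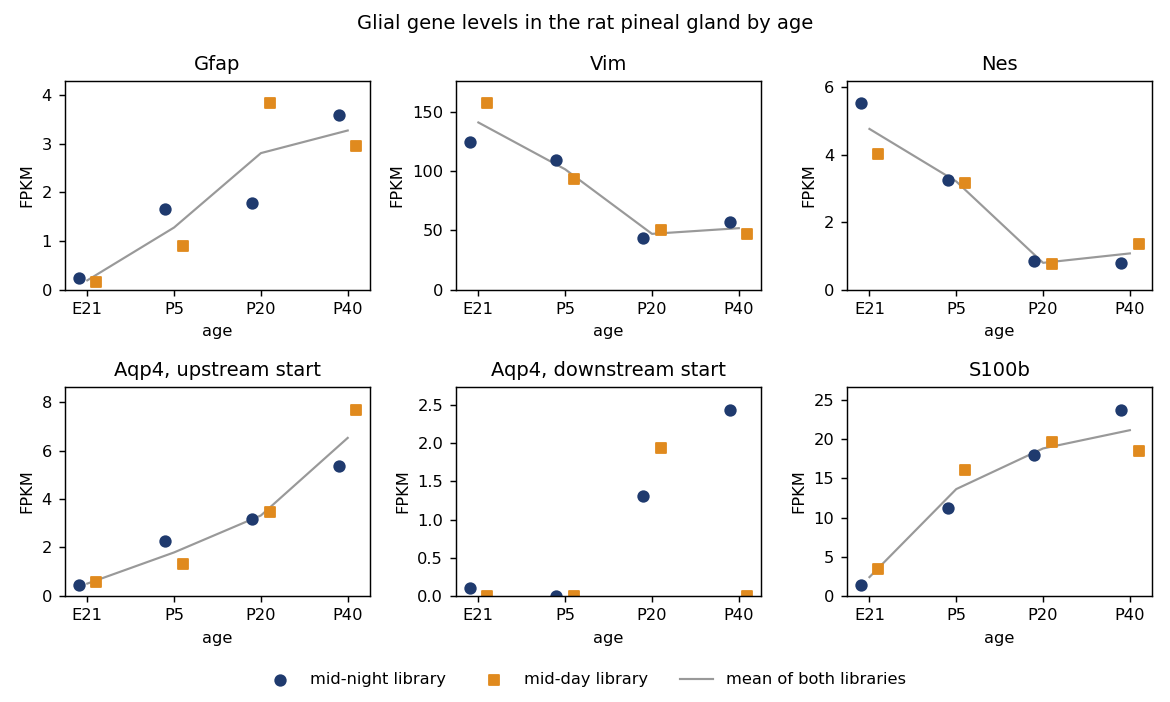
Levels (FPKM, vertical axes from 0, scaled separately for each transcript) of the 6 transcripts at the 4 ages, with 1 point for each mid-night library (circles) and each mid-day library (squares) and a grey line through the mean of both libraries. No line is drawn for the downstream start of Aqp4, which is listed at 0 at P40 mid-day. Gfap, S100b and the upstream start of Aqp4 have their lowest mean at E21 and their highest at P40, although the highest single Gfap library is P20 mid-day (3.83 FPKM), and Vim and Nes have their highest mean at E21.

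Gfap, the filament gene of differentiated astrocytes, was close to the limit of detection before birth. Levels are given as FPKM, the number of fragments corrected for transcript length and library depth, which can be compared between genes. The mid-night libraries of E21, P5, P20 and P40 held 0.233, 1.66, 1.78 and 3.59 FPKM of Gfap (NM_017009, chr10:92059880-92068555 on rn4), and the mid-day libraries held 0.146, 0.898, 3.83 and 2.96 FPKM. Every postnatal library lay above both E21 libraries. By an approximate depth, described below, these E21 values correspond to about 6.02 fragments per kilobase of transcript at mid-night and 2.88 at mid-day. By this measure the E21 level is the least precise of the series. The P20 libraries stood far apart, and both P40 libraries fell between them. Gfap averaged 3.27 ± 0.448 FPKM at P40 and 0.189 ± 0.0614 FPKM at E21 (SD, n = 2 each), a ratio of 17.3. Each SD of a mean level, here and below, is over the mid-night and the mid-day library of an age. It thus includes any difference between these times and is not a spread of replicates. In a limma fit on log2(FPKM + 1), which understates the change of transcripts near or under 1 FPKM, Gfap rose by 1.84 ± 0.30 on the log2 scale (SE) in P40 against E21 (adjusted p = 0.00226).

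Vim was the most abundant of the 6 transcripts at every age. Its levels (NM_031140, chr17:87847279-87855763) were 125, 109, 43.7 and 56.8 FPKM at mid-night and 157, 93.8, 50.5 and 47.0 FPKM at mid-day at E21, P5, P20 and P40. The 4 libraries of E21 and P5 lay above the 4 libraries of P20 and P40. Vim stood above 97.4% to 99.7% of all transcripts in each library, also after its decrease. It averaged 51.9 ± 6.93 FPKM at P40 and 141 ± 22.8 FPKM at E21, and fell by 1.42 ± 0.23 on the log2 scale (adjusted p = 0.00211), so that the E21 mean was 2.72 times that of P40.

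Nes, the progenitor filament gene, fell with a similar course at a far lower level. The mid-night libraries held 5.53, 3.27, 0.835 and 0.784 FPKM (NM_012987, chr2:180051906-180060947) and the mid-day libraries 4.01, 3.15, 0.752 and 1.36 FPKM at E21, P5, P20 and P40. No library of P20 or P40 reached the lowest of E21 and P5. Nes averaged 1.07 ± 0.408 FPKM at P40 and 4.77 ± 1.07 FPKM at E21, a mean 4.45 times higher at E21, and the change was -1.48 ± 0.22 (adjusted p = 0.00165). In a pool of whole glands, fewer cells of a type and less RNA per cell cannot be told apart.

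The order of the filament genes turned round between the ages. Nes exceeded Gfap 23.8-fold at mid-night and 27.5-fold at mid-day at E21, whereas Gfap exceeded Nes 4.58-fold and 2.17-fold in the mid-night and mid-day libraries of P40. The ratio of Vim to Gfap at E21, P5, P20 and P40 was 538, 66.1, 24.5 and 15.8 at mid-night and 1079, 104, 13.2 and 15.9 at mid-day. Vim remained the larger in all 8 libraries. The E21 ratios carry the counting error of a Gfap level of a few fragments per kilobase.

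The upstream start of Aqp4 (NM_012825, chr18:6626312-6642766) had a higher mean at each successive age. It held 0.444, 2.27, 3.17 and 5.35 FPKM at mid-night and 0.557, 1.31, 3.47 and 7.70 FPKM at mid-day at E21, P5, P20 and P40. Neighbouring ages did not overlap. The mean was 6.52 ± 1.66 FPKM at P40 and 0.5004 ± 0.0797 FPKM at E21, a ratio of 13.0, and the log2 change was 2.31 ± 0.24 (adjusted p = 0.000348).

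The other Aqp4 transcript, NM_001142366 (chr18:6626312-6641850), shares one end with the first and ends 916 bp short of it at the other. The same 916 bp separate both RefSeq windows printed for the gene, which lie on the minus strand, so this transcript has the downstream start. Its values at E21, P5, P20 and P40 were 0.0957, 0.000154, 1.31 and 2.44 FPKM at mid-night and 4.08e-05, 5.47e-05, 1.94 and 0 FPKM at mid-day. It thus exceeded 1 FPKM in 3 libraries, both of P20 and the mid-night library of P40. Cufflinks divides the reads of overlapping transcripts between them, so these values are not separate counts, and an exact 0 can be a failed estimate. The change in P40 against E21 was 0.83 ± 0.45 and did not pass (adjusted p = 0.17), while without the P40 mid-day library it was 1.75 ± 0.27 and did (adjusted p = 0.00446).

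Summed over both starts, Aqp4 was alike in the mid-night and mid-day libraries of P40. The sum was 0.540, 2.27, 4.48 and 7.79 FPKM at mid-night and 0.557, 1.31, 5.41 and 7.70 FPKM at mid-day at E21, P5, P20 and P40. The downstream start took 29.3% of this sum at P20 mid-night, 35.9% at P20 mid-day and 31.4% at P40 mid-night, and is listed at 0 at P40 mid-day. With FPKM summed per gene, an alternative chosen after seeing the data, Aqp4 rose by 2.498 ± 0.22 in P40 against E21 (adjusted p = 0.000101). It then also rose in P20 against P5, by 1.11 ± 0.22 (adjusted p = 0.0207), a step that the upstream start alone did not pass (0.65 ± 0.24, adjusted p = 0.15).

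**Figure D2:**
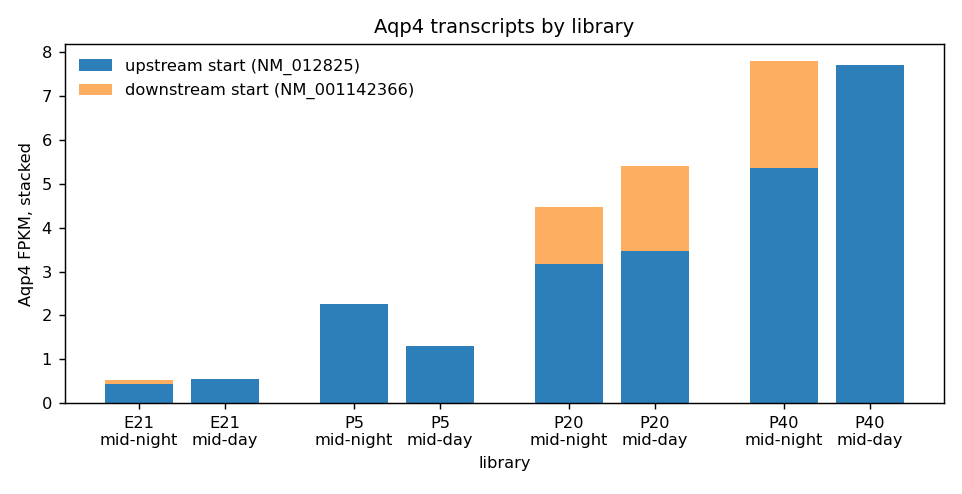
Aqp4 level (FPKM, vertical axis from 0) in the 8 libraries, mid-night left of mid-day at each age, with the upstream start (lower segment) and the downstream start (upper segment) stacked. The downstream start makes up 29.3% to 35.9% of the bar in the libraries of P20 and at P40 mid-night, and no upper segment stands at P40 mid-day, although the whole bars of P40 are alike at 7.79 and 7.70 FPKM.

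S100b had most of its increase behind it by P5. Its levels (NM_013191, chr20:12791439-12824508) were 1.33, 11.2, 18.1 and 23.8 FPKM at mid-night and 3.42, 16.1, 19.6 and 18.5 FPKM at mid-day at E21, P5, P20 and P40. The E21 libraries stood well below all others, whereas those of P20 lay within or at the edge of the P40 range. S100b averaged 21.2 ± 3.74 FPKM at P40 and 2.38 ± 1.48 FPKM at E21, a ratio of 8.91, and rose by 2.78 ± 0.28 on the log2 scale (adjusted p = 0.000299). Of this log2 change, 78.1% had taken place by P5, compared with 49.8% for Gfap, 37.8% for the upstream start of Aqp4, 32.7% for Vim and 30.0% for Nes. The log2(FPKM + 1) scale understates the early step of Gfap and Aqp4, which lay under 1 FPKM at E21, more than that of S100b. In mean FPKM, P5 exceeded E21 5.74-fold for S100b, 6.75-fold for Gfap and 3.58-fold for the upstream start of Aqp4. P40 exceeded E21 8.91-fold, 17.3-fold and 13.0-fold for them. These shares are descriptions from 2 libraries an age, and whether the genes differ in timing was not tested.

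Set against all transcripts, 5 of the 6 rows passed for P40 against E21, 3 higher and 2 lower. Over the 9960 transcripts tested (at least 1 FPKM in at least 2 libraries), 42.9% passed in this comparison, 16.1% higher and 26.8% lower, with a median change of -0.18. The test of change over the 4 ages passed for the same number of rows, 5 of 6, against 36.4% of all transcripts (adjusted p of 0.00733 for Gfap, 0.0035 for Vim, 0.00246 for Nes, 0.00156 for the upstream start of Aqp4 and 0.000921 for S100b). All 6 transcripts had passed the filter on low values, Gfap and Aqp4 through their postnatal libraries only. The filter requires a high value somewhere, and the counts of the 6 rows are given as a description. The direction of the balance over all transcripts depended on the scaling: 37.5% of calls were higher in P40 as deposited, 47.4% after quantile normalization and 52.0% after median centring. The share of all transcripts that passed was 23.5% without the P40 mid-night library, 26.4% without the P40 mid-day library, 28.1% without the E21 mid-night library and 28.3% without the E21 mid-day library, while the 5 calls of the glial genes held in each of these fits.

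Between E21 and P5, S100b and Aqp4 passed, 2 of 6 rows against 15.1% of all transcripts (8.29% higher and 6.84% lower). S100b had 11.2 and 16.1 FPKM at P5, against 1.33 and 3.42 FPKM at E21, and rose by 2.17 ± 0.28 (adjusted p = 0.00325). The upstream start of Aqp4 rose by 0.87 ± 0.24 at the edge of the threshold (adjusted p = 0.0494). This Aqp4 call was lost without any single library other than P5 mid-day: the adjusted p was 0.251 without P5 mid-night, 0.173 and 0.163 without the mid-night and mid-day libraries of E21, 0.0711 and 0.072 without those of P20, and 0.0518 and 0.0522 without those of P40. Gfap, with a change of 0.92 ± 0.30, did not pass (adjusted p = 0.0774), but did so without the P20 mid-night library (adjusted p = 0.0262) or the P20 mid-day library (0.0266). The share of all transcripts that passed was also tied to single libraries, at 4.41% without P5 mid-day, 5.85% without E21 mid-day, 6.36% without P5 mid-night and 8.87% without E21 mid-night.

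Vim and Nes fell in P20 against P5. Vim had 43.7 and 50.5 FPKM at P20, against 109 and 93.8 FPKM at P5, and fell by 1.09 ± 0.23 (adjusted p = 0.03). Nes had 0.835 and 0.752 FPKM at P20, against 3.27 and 3.15 FPKM at P5, and fell by 1.23 ± 0.22 (adjusted p = 0.0195). These were 2 of 6 rows, against 7.02% of all transcripts, of which 1.02% were higher and 5.99% lower. Calls in this step were fragile: the share of all transcripts that passed was 0.355% in the absence of the P5 mid-night library, 0.534% in that of P20 mid-night, 1.93% in that of P20 mid-day and 3.64% in that of P5 mid-day, and neither gene passed in any of these fits (adjusted p of 0.0826 to 0.27 for Vim and 0.0826 to 0.166 for Nes). Vim was also lost without P40 mid-day (adjusted p = 0.0525) and after median centring (-0.89, adjusted p = 0.0605). Their lower means at P5 than at E21 were not called (Vim -0.47 ± 0.23, adjusted p = 0.203; Nes -0.44 ± 0.22, adjusted p = 0.217), although the libraries did not overlap and Vim passed after quantile normalization (-0.84, adjusted p = 0.0296), and whether the steps differ in size was not tested. Of all calls in P20 against P5, 14.6% were higher in P20 as deposited, 41.2% after quantile normalization and 34.7% after median centring.

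Markers of some other cells fell in the same step as Vim and Nes, and those of others did not. None of 11 pinealocyte genes and none of 5 smooth muscle and pericyte markers was called. Microglial genes rose in 1 of 9 cases with none lower, and other astrocyte markers rose in 4 and fell in 1 of 22. Ependymal markers fell in 2 of 3 cases, and Schwann cell markers fell in 3 and rose in 1 of 4. In P20 against P5, cell cycle genes fell in 11 of 12 cases (median -1.58), with sums of 21.6 and 16.4 FPKM in the mid-night and mid-day libraries of P20, against 67.6 and 63.6 FPKM in those of P5. Fibroblast and meningeal markers fell in 6 and rose in 1 of 12 cases (median -1.38), with sums of 195 and 232 FPKM at P20, against 666 and 502 FPKM at P5. Choroid plexus markers fell in 8 of 10 cases (median -3.03), with sums of 909 and 669 FPKM at P20, against 17963 and 3206 FPKM at P5, and endothelial markers in 2 of 7 cases (median -0.72), with sums of 19.3 and 22.0 FPKM at P20, against 44.7 and 37.4 FPKM at P5. These counts also depended on single libraries. Without P5 mid-night the cell cycle, fibroblast, choroid plexus and endothelial lists had 2, 1, 1 and 0 genes that fell, without P20 mid-night 3, 1, 0 and 0, without P20 mid-day 5, 2, 5 and 0, and without P5 mid-day 9, 3, 8 and 0, and the endothelial list had 1 without either P40 library. Their part in the decrease of Vim and Nes was not tested.

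Between P20 and P40 none of the 6 rows and none of the 9960 transcripts passed (0%) in limma, and at an unadjusted p under 0.05 there were 669 transcripts (6.72%). The upstream start of Aqp4 was the 1 glial row among these, with 5.35 and 7.70 FPKM at P40, against 3.17 and 3.47 FPKM at P20 (0.79 ± 0.24, unadjusted p = 0.0126, adjusted p = 0.527). The 7.70 FPKM of P40 mid-day stands beside a listed 0 for the downstream start. Summed over both starts, Aqp4 had 7.79 and 7.70 FPKM at P40, against 4.48 and 5.41 FPKM at P20. The step of this sum was 0.56 ± 0.22 (limma adjusted p = 0.676). By mean level the ages stood in the order P40, P20, P5 and E21 from high to low for Gfap, S100b and the upstream start of Aqp4, and in the order E21, P5, P40 and P20 for Vim and Nes. The libraries of P20 and P40 overlapped for Gfap, Vim, Nes and S100b. Of the steps between successive ages, P5 against E21 passed for S100b and the upstream start of Aqp4 and P20 against P5 for Vim and Nes, and no other step of these 5 transcripts did.

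**Figure D3:**
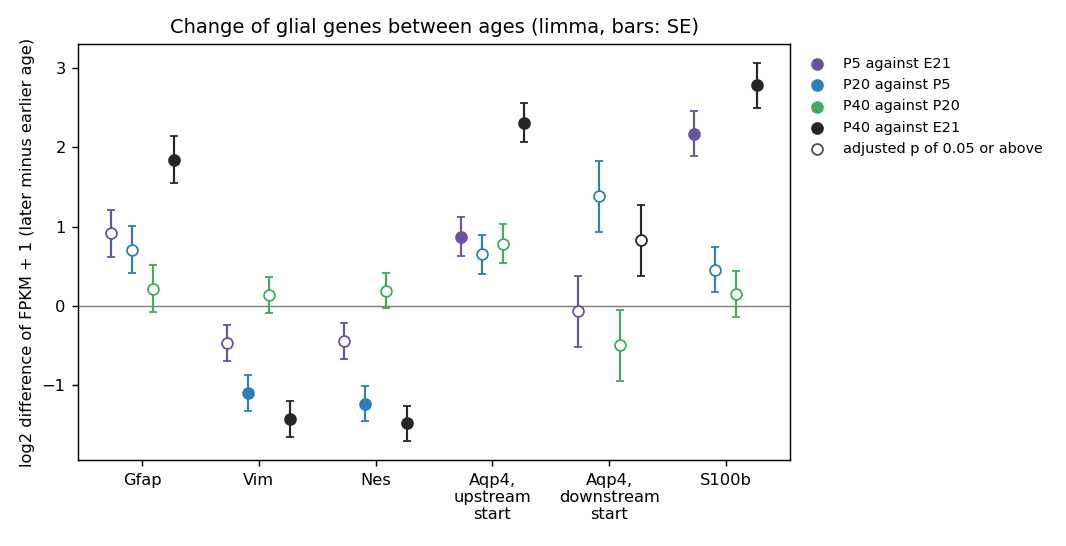
Change of each transcript between ages as the log2 difference of FPKM + 1, later minus earlier age, with standard errors from limma as bars. Filled points passed at an adjusted p under 0.05 and open points did not. S100b has its largest step at P5 against E21 (2.17), and Vim and Nes have theirs at P20 against P5 (-1.09 and -1.23).

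No difference between mid-night and mid-day passed for these genes. None of the 6 rows passed for mid-night against mid-day at P20 and P40, where 4.39% of all transcripts did, nor at E21 and P5, where 0.0301% did. At an unadjusted p under 0.05 there was none in the older glands, against 20.1% of transcripts, and 1 in the younger, against 5.68%. That row was S100b, with 1.33 FPKM at mid-night and 3.42 FPKM at mid-day at E21, and 11.2 FPKM at mid-night and 16.1 FPKM at mid-day at P5 (-0.70 ± 0.19, unadjusted p = 0.00718, adjusted p = 0.6). The difference between the night effect of the older and that of the younger glands was 0.82 ± 0.27 for S100b (unadjusted p = 0.0181, adjusted p = 0.266), where 0.753% of all transcripts passed. At a single age, with no test possible, the downstream start of Aqp4 at P40 was the only row at least 2-fold apart on the log2(FPKM + 1) scale. Such a difference was seen for 2.03% of transcripts at E21, 1.85% at P5, 5.16% at P20 and 4.38% at P40. That difference is between 2.44 FPKM at P40 mid-night and the listed 0 at P40 mid-day. A fit of the night effect of the older glands without a P20 library rests on this pair alone and adds no test of it.

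Profiles were compared as the root mean square difference of log2(FPKM + 1), centred for each transcript, over the 8 libraries. Among the 6 rows, Vim and Nes lay nearest to each other (0.26), followed by Gfap and the upstream start of Aqp4 (0.34). Gfap stood 0.62 and the upstream start of Aqp4 0.64 from S100b. The most distant pair was Nes and S100b, at 1.795. Of the 5616 transcripts of at least 5 FPKM on average, those nearest to Gfap were Pgcp (0.17), Abhd12 (0.18) and Fkbp4 (0.20). Adding 1 FPKM flattens low transcripts such as Gfap, Nes and Aqp4 more than these candidates, so near profiles can differ in fold change. Pgcp averaged 17.9 FPKM at E21 and 70.1 FPKM at P40, whereas Gfap averaged 0.189 and 3.27 FPKM. Nearest to the upstream start of Aqp4 were Hspb6, a small heat shock protein (0.19), Rnasek (0.22) and Ppt1 (0.23). For S100b they were Crb1, a polarity gene (0.20), Asns, asparagine synthetase (0.23), and Snx10 (0.23). Nearest to Vim were Ifi30 (0.13), Flrt3 (0.13) and Mapre1 (0.14). Those of Nes were Cdh5, the cadherin of endothelial junctions (0.12), Ccdc23 (0.13) and the transcription factor gene Ets1 (0.13). All 8 libraries enter each profile, and with so many candidates some profiles lie close without any tie between the genes.

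Other genes used as astrocyte markers moved both ways. Of 22 tested (of 30 listed), 11 rose and 6 fell in P40 against E21, with a median of 0.72 beside -0.18 over all transcripts. Of all transcripts tested, 16.1% rose and 26.8% fell. Apoe, a lipid carrier, averaged 413 ± 58.1 FPKM at P40 and 35.4 ± 0.380 FPKM at E21 (3.50 ± 0.27, adjusted p = 9.46e-05). Clu, a secreted chaperone, averaged 506 ± 51.4 FPKM at P40 and 159 ± 8.71 FPKM at E21 (1.67 ± 0.30, adjusted p = 0.00349). Atp1b2, a sodium pump subunit, rose by 1.64 ± 0.29 and Cst3, the protease inhibitor cystatin C, by 1.98 ± 0.53. Among those that fell, named here after their values were seen, were the connexin gene Gja1 (59.1 ± 0.684 FPKM at P40 and 102 ± 19.2 FPKM at E21), the glutamate transporter Slc1a3 (4.35 ± 1.39 FPKM at P40 and 9.17 ± 1.09 FPKM at E21) and Fabp7, a fatty acid binding protein of radial glia (0.135 ± 0.0675 FPKM at P40 and 3.14 ± 1.73 FPKM at E21). Without the P40 mid-night library 7 rose and 4 fell, and without the P40 mid-day library 9 rose and 3 fell. The markers Kcnj10, Acsbg1 and Slc6a11 lay under 1 FPKM in every library.

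Radial glia and progenitor genes mostly fell, as Vim and Nes did. Of 12 tested, 9 fell and 2 rose in P40 against E21, with a median of -0.88. Msi1, an RNA-binding protein of progenitors, averaged 35.0 ± 8.12 FPKM at P40 and 62.0 ± 9.37 FPKM at E21 (-0.82 ± 0.25, adjusted p = 0.0334). The transcription factor gene Pax6 averaged 8.42 ± 0.959 FPKM at P40 and 17.5 ± 4.81 FPKM at E21 (-0.95 ± 0.21, adjusted p = 0.0087). Cdh2, a cell adhesion gene, and Ednrb, an endothelin receptor, went the other way (0.95 ± 0.23 and 1.81 ± 0.39). Fabp7 and Slc1a3 are in this list and in that of astrocyte markers. The number that fell was 5 without either mid-day library of P40 or E21.

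Genes that reactive astrocytes make rose in 8 of 11 cases in P40 against E21, with 1 lower and a median of 1.34. Over all transcripts tested, 16.1% were higher and 26.8% lower. With a library left out, the median of this list ran from 1.24 to 1.95. Cp, the copper protein ceruloplasmin, averaged 31.3 ± 1.31 FPKM at P40 and 2.67 ± 0.130 FPKM at E21 (3.14 ± 0.18, adjusted p = 3.57e-05). Hspb1, a small heat shock protein, rose by 3.65 ± 0.58 and Cxcl10, a chemokine, by 2.63 ± 0.32, while the membrane protein gene Emp1 fell by 1.24 ± 0.17. Many of these genes are also made by other cells of the gland, and the cells of origin were not resolved.

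Family members, linkers and anchors related to the described proteins were called in both directions in P40 against E21. So were all transcripts tested, with 16.1% higher and 26.8% lower, and several of these small lists lie near those shares. Among 10 other intermediate filament and linker genes, Nefh (1.46 ± 0.18) and Synm, whose product joins vimentin filaments (1.04 ± 0.23), rose, and Lmnb1 (-2.32 ± 0.23) and Nefm (-1.47 ± 0.27) were among 3 that fell. Without either E21 library 1 fell. Of 6 water and potassium channels and their anchors, 2 rose and 2 fell. Among them, Aqp1 is also in the choroid plexus list and Mlc1 in that of astrocyte markers. Mlc1, a membrane protein of astrocyte endfeet, averaged 5.77 ± 1.21 FPKM at P40 and 0.738 ± 0.106 FPKM at E21 (1.95 ± 0.19, adjusted p = 0.000222), and Dmd, the dystrophin gene, rose by 1.07 ± 0.23, while the water channel Aqp1 (-1.95 ± 0.35) and Agrn (-0.78 ± 0.19) fell. Without the mid-night library of E21 or of P40, 1 of this list rose and 1 fell, and without P40 mid-day 2 rose and 1 fell. In the S100 family, 4 of 9 rose and 2 fell, among them S100a6 (6.71 ± 1.50 FPKM at P40 and 0.451 ± 0.238 FPKM at E21) and S100a10 (5.09 ± 0.987 FPKM at P40 and 28.8 ± 17.5 FPKM at E21). Without E21 mid-day 2 rose and 1 fell, and without E21 mid-night or either library of P40 3 rose and 1 fell.

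Genes of glutamate and glutamine handling, the pathway of the astrocyte enzyme glutamine synthetase, rose in 6 and fell in 4 of 14 cases. Over all transcripts tested, 16.1% rose and 26.8% fell in P40 against E21. The vesicular glutamate transporter Slc17a7 averaged 275 ± 1.76 FPKM at P40 and 29.4 ± 7.17 FPKM at E21 (3.20 ± 0.27), and the transaminase gene Got1 averaged 145 ± 19.3 FPKM at P40 and 21.7 ± 3.50 FPKM at E21 (2.69 ± 0.21). Without the E21 mid-day library 5 rose and 2 fell. Slc17a6, another vesicular glutamate transporter of this list, also rose at mid-night against mid-day at P20 and P40 (1.95 ± 0.25, adjusted p = 0.00683). Of 11 genes of signals that induce astrocytes, 8 fell and none rose, with Bmp4 at 4.44 ± 0.473 FPKM at P40 and 44.8 ± 8.43 FPKM at E21 (-3.06 ± 0.21, adjusted p = 6.04e-05). The number that fell was 4 without the E21 mid-night library and 5 without the P40 mid-night library. Among 9 glial transcription factors 2 rose and 2 fell, Zbtb20 (0.72 ± 0.19) and Stat3 up, and Id3 (-1.31 ± 0.26) and Hes1 (-0.78 ± 0.24). Stat3 lay at the threshold (0.62 ± 0.21, adjusted p = 0.05 after rounding), and without a library of E21 or P40 none of this list rose and 1 fell.

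**Figure D4:**
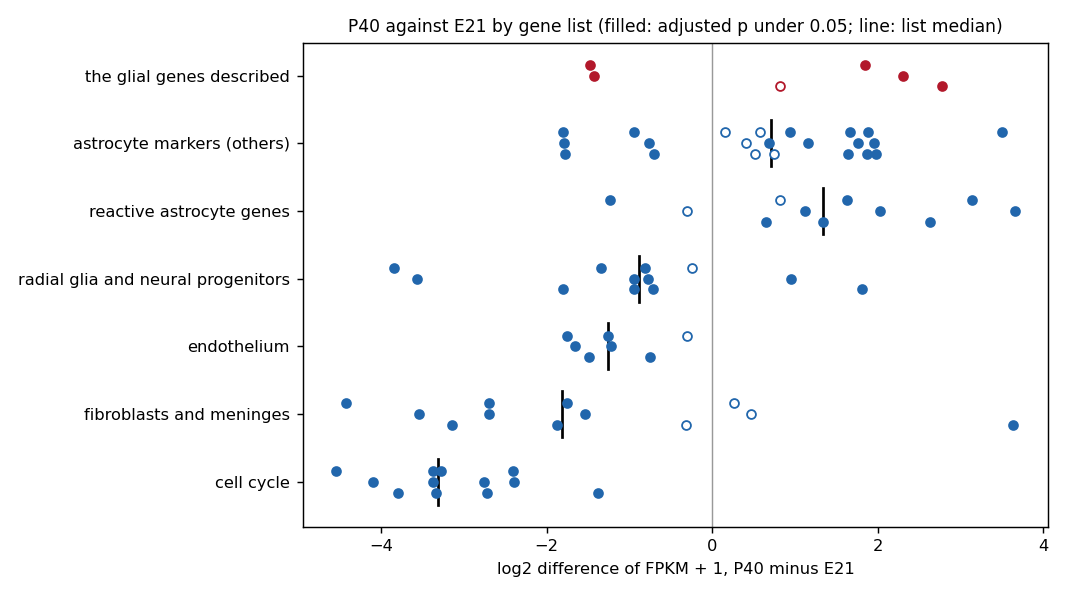
Change in P40 against E21 (log2 difference of FPKM + 1, P40 minus E21) of each tested transcript of the glial genes described and of each tested gene of 6 lists, with a line at the list median. Filled points passed at an adjusted p under 0.05. The described genes split at 0, other astrocyte markers have a median of 0.72, and genes of radial glia, endothelium, fibroblasts and the cell cycle have medians of -0.88, -1.26, -1.81 and -3.31.

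Markers of other cells changed along with the described genes. Vim and Nes are also made by endothelial and mesenchymal cells. Of 7 endothelial markers tested 6 fell in P40 against E21, and their summed level was 18.6 and 22.6 FPKM in the mid-night and mid-day libraries of P40, against 68.8 and 52.0 FPKM in those of E21. Cldn5 was listed at 0 in every library. Fibroblast and meningeal markers fell in 8 and rose in 1 of 12 cases, with sums of 163 and 196 FPKM at P40, against 1279 and 900.3 FPKM at E21. Cell cycle genes fell in all 12 cases tested, with sums of 23.1 and 11.9 FPKM at P40, against 171 and 219 FPKM at E21. Of the markers of smooth muscle and pericytes 3 of 5 fell, 1 of 4 without E21 mid-night and 0 of 5 without P40 mid-night.

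S100b is also made by Schwann cells and cells of the oligodendrocyte line. Oligodendrocyte markers rose in 2 of 5 cases, Cnp and Ermn, with sums of 23.7 and 16.9 FPKM at P40, against 8.97 and 7.71 FPKM at E21, and in 1 case without E21 mid-day. Mag and Mobp lay under 1 FPKM in every library. Of 4 Schwann cell markers 1 rose and 1 fell, with sums of 13.8 and 10.01 FPKM at P40, against 22.8 and 19.5 FPKM at E21. Pinealocyte genes rose in 7 and fell in none of 11 cases, with sums of 6766 and 5036 FPKM at P40, against 1519 and 991 FPKM at E21. Microglial genes rose in 4 and fell in 2 of 9 cases, with sums of 60.8 and 47.9 FPKM at P40, against 37.2 and 30.9 FPKM at E21. Without E21 mid-day or either library of P40, 1 of them rose and 1 fell, and without E21 mid-night 2 rose and 2 fell. The brain neuron genes tested, Slc17a7 among them, rose in 3 of 3 cases, while Gad1, Gad2, Camk2a and Nefl of the same list lay under 1 FPKM in every library.

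At P5 the libraries also carried choroid plexus and ependymal transcripts. The 10 choroid plexus genes summed to 17963 FPKM at P5 mid-night and 3206 FPKM at P5 mid-day, against 1652 and 1371 FPKM at E21. Ttr, the thyroid hormone carrier of choroid plexus, made up most of this with 17323 FPKM at P5 mid-night and 2889 FPKM at P5 mid-day. In P5 against E21, 8 of the 10 rose, and 5 did without E21 mid-day. In P40 against E21, 1 rose and 2 fell, with 1 that fell in the absence of E21 mid-night, of P40 mid-night or of a P20 library, and 4 that fell in that of P40 mid-day. Ependymal genes summed to 25.7 FPKM at P5 mid-night and 11.01 FPKM at P5 mid-day, against 8.57 and 5.67 FPKM at E21. Choroid plexus and ependyma, like glia, can express Aqp4 or Vim, and of the described transcripts Gfap, Vim, Nes and the upstream start of Aqp4 were higher, and S100b lower, at P5 mid-night than at P5 mid-day. Without both P5 libraries, an alternative added after seeing the data, P40 against E21 gave 5 calls among the described transcripts. In the same fit 4008 of all 9779 transcripts tested passed, 1498 higher and 2510 lower. The part that any of these other cells had in the levels of the described genes was not tested.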

How the data were processed

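Per the submitters' processing notes, TopHat 1.3.1, Cufflinks 1.2.0 and build rn4 were employed, and the authors deposited an FPKM value per RefSeq transcript. The extraction, enrichment and library steps are known from the labels' protocols, and no scaling beyond FPKM is given in the sources used here. The deposited values of the 8 samples were identical to the series' values. FPKM + 1 was taken to log2. A transcript entered the fit when 2 or more libraries reached 1 FPKM. Fits used limma 3.58.1 (R 4.3.3) with a mean-variance trend; tests were two-sided, with p adjusted by Benjamini-Hochberg and a threshold of 0.05. One fit had age and time of day (3 residual degrees of freedom, prior 4.816), and the other age and a night effect for each pair of ages (2 residual degrees of freedom, prior 5.659). The fit was tested on simulated data with independent noise for each transcript and library, with outcomes not reported here. Such data hold no difference shared by the transcripts of a pool, so they cannot test p-values from unreplicated pools. With 1 pool for each age and time, no condition was replicated. The p-values rest on the spread that the age and night terms leave over in these pools. Differences between pools enter this spread, and so does a night effect that differs between ages sharing a night term. The FPKM of 1 fragment on a 1 kb transcript was approximated, not counted. A low percentile of the values of short olfactory receptor transcripts above a small floor, scaled to 1 kb, was taken for it. It ran from 0.0271 FPKM (P40 mid-night) to 0.0641 FPKM (P20 mid-day), and rests on 13 to 26 values a library. Read counts were not used here, so no counting intervals are given. Summed FPKM ran from 122920 to 158792 per library.

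The members, gene lists and tests were chosen with earlier results of these data known. Named are the members, up to 4 genes of a list past the test with the highest mean FPKM, and the 3 nearest profiles of each member; exceptions are marked, and some listed genes are not reported here by name. For genes with several transcripts, lists used the one with the highest mean. The alternatives changed the pseudocount (0.1, 5), the filter (none, 5 FPKM), the scaling (quantile normalization, median centring), the trend or the time term, or left out a library.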

Additional observations from a re-analysis of the deposited data

How the results depend on the processing

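Pools could not be paired across ages because the labels give them no replicate numbers, with 1 pool per age and time. Mid-night and mid-day pools were compared within ages through the age term. Of 790 alternatives for single transcripts, 749 stayed on the same side of the threshold in the same direction, 28 lost and 13 gained a call, and none reversed; the 5 calls in P40 against E21 held in every alternative in which the transcript was tested. Without a filter, calls came to 1454 for age (none of the glial rows, 0), 380 for P5 against E21 (0 glial rows), 10 for P20 against P5 (0 glial rows), 1 for P40 against P20 and 0 for both night effects and their difference. A filter at 5 FPKM, which removes Gfap, Nes and the downstream start of Aqp4, gave 2322 for age (3 glial rows), 2838 for P40 against E21 (3), 1 glial row for P5 against E21, 372 for P20 against P5 (1) and 0 for night at E21 and P5. A pseudocount of 5 gave 1 glial row for P5 against E21, 397 for P20 against P5, 0 for night at E21 and P5 and 37 for the difference of night effects, and a pseudocount of 0.1 gave 1 for P40 against P20. Median centring gave 1 glial row for P20 against P5 and 0 for night at E21 and P5, where quantile normalization and eBayes without trend gave 1 each. Leaving out each library in turn gave 2277 to 3349 calls for age (5 to 6 glial rows), 2323 to 4250 for P40 against E21 (5 to 6), 436 to 1439 for P5 against E21 (1 to 2), 35 to 753 for P20 against P5 (0 to 3), 0 to 1 for P40 against P20 (0), 166 to 363 for night at P20 and P40 (0 to 1), 0 to 7 for night at E21 and P5 (0) and 7 to 69 for their difference (0). In such fits the lone library of an age is assumed to vary like the others. The cause of these changes was not tested, beyond the fewer libraries or other transcripts tested. Gfap passed in P5 against E21 with a pseudocount of 0.1 (2.21, adjusted p = 0.0194) and after median centring (0.95, adjusted p = 0.0497), and Vim did after quantile normalization (-0.84, adjusted p = 0.0296). By the approximate depth, Gfap and Aqp4 at E21 are limited most, and P20 mid-day has the highest FPKM for 1 fragment.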
